A study of Mus musculus with 20 samples.

Results

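Gene expression in the striatum was compared between a mouse line selected for overactivity in the cage and a control line, with saline-treated and d-amphetamine-treated mice pooled. The comparison set 10 overactive libraries against 10 control libraries and held treatment as a covariate, so it describes what differed between the lines on top of any drug effect common to both. It used every row of the deposited table that carried a gene symbol, 26475 rows, of which 17206 passed a filter on low counts and were tested. Rows carrying several symbols numbered 626, and 1560 rows had a symbol that also stood on another row.

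All mice were males of about 6 months labelled as Collaborative Cross, a mouse population bred from several inbred founder strains. Control mice received saline (5 mice) or d-amphetamine at 25 mg/kg (5 mice), and overactive mice received the same treatments (5 mice each). Whole striatum was taken 2 hours after treatment, and RNA from each mouse gave 1 paired-end library. The labels name a single overactive and a single control line, so differences due to selection and other inherited differences between these stocks cannot be told apart.

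The striatum is the input station of the basal ganglia and takes part in starting and scaling movement. Most of its neurons are GABAergic projection neurons that carry either the D1 or the D2 dopamine receptor, and dopamine released by amphetamine acts on both. Mice of the Collaborative Cross segregate founder alleles, among them duplications, deletions and regulatory variants that change the level of single genes. A line bred from such a stock can therefore differ from another at many separate places in the genome.

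Library totals ran from 32633562 to 46493247 counts in the control line and from 31393788 to 53773028 counts in the overactive line. The labels name separate mice, 1 for each library. Markers of striatal projection neurons were abundant in every library: the 30 markers summed to between 11361 and 14086 CPM (counts scaled by library size) in control mice and to between 8932 and 14309 CPM in overactive mice. Levels of markers of neighbouring brain regions varied among libraries, with medians that differed between lines, ranges that overlapped and 0 single markers called. Summed over 22 tested members, thalamic, hypothalamic and septal neuron markers ran from 204 CPM through a median of 267 to 424 in the control line, and from 238 through 372 to 787 in the overactive line. The 21 cortical and hippocampal markers ran from 1113 through 1808 to 2251 CPM in the control line and from 761 through 1152 to 2308 in the overactive line. The 4 libraries with the highest thalamic marker scores were all overactive: saline libraries 1 and 4 and amphetamine libraries 2 and 3. The difference between lines over both treatments was therefore also fitted with cortical and thalamic marker scores as covariates, and without those 4 libraries.

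The lines differed at many genes, mostly by small amounts. Of 17206 genes tested, 1281 (7.45%) were called by edgeR's quasi-likelihood test, meaning that the p adjusted by Benjamini and Hochberg's method was under 0.05, and 307 (1.78%) had one under 0.01. In the overactive line 658 of them were higher (3.82%) and 623 were lower (3.62%). The median size of a called change was 0.34 on the log2 scale, and the median standard error (SE) over all genes was 0.08. Changes under 1.5-fold made up 906 of the calls (70.7%). A further 194 lay between 1.5-fold and 2-fold, and 181 reached at least 2-fold (119 higher and 62 lower). Genes with large changes were weakly expressed: the median level was 0.962 CPM among genes changed at least 2-fold and 34.0 CPM among genes changed less than 1.5-fold. The share called hardly varied with level, from 7.11% in the lowest expression quartile to 7.70% in the second, 7.51% in the third and 7.46% in the highest, while the median SE fell from 0.22 to 0.05. Of 14724 genes annotated as protein coding 7.51% were called, of 848 long noncoding RNA genes 6.25%, and of 229 pseudogenes 10.5%.

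The count was lower in the fits with the marker scores and without the 4 libraries. With the marker scores as covariates 251 genes were called (128 higher and 123 lower), and 230 of these were among the 1281. Without the 4 libraries 324 genes were called, 290 of them shared. No other set of 4 libraries was left out, so the part of the smaller number of libraries in this fall was not tested. With 1 library left out the count ran from 803 to 1519. All 1281 genes kept their direction with the scores, and their median size went from 0.34 to 0.28. A core of 189 genes passed in all 3 fits, 94 higher and 95 lower in the overactive line, with a median size of 0.52. How far tissue from neighbouring regions contributed to the remaining calls was not tested.

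In 46 genes (0.267%) the 10 libraries of a line did not overlap with the 10 of the other, 24 with all overactive libraries higher (0.139%) and 22 with all overactive libraries lower (0.128%). All 46 were among the called genes, 40 were also called with the marker scores and 44 without the 4 libraries. A selection of these genes and of others chosen by a fixed rule is described next, with levels in CPM as lowest, median and highest library.

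Wdr11 (chr7:129591654-129635738), which encodes a WD-repeat protein of endosome-to-Golgi transport, had one of the clearest gains. Its level was 49.6, 51.6 and 55.3 CPM in the control line and 65.2, 78.9 and 100.3 CPM in the overactive line. The control libraries lay within a narrow band, and every overactive library stood above it (log2 difference 0.66, SE 0.07, adjusted p = 1.96e-05). Coq7 (chr7:118525062-118533313), a hydroxylase of coenzyme Q synthesis in mitochondria, went from 11.7, 13.5 and 15.9 CPM in control mice to 18.1, 20.9 and 25.5 CPM in overactive mice. Its difference was 0.63 (SE 0.07, adjusted p = 1.96e-05), again with no overlap. Among the 12 coenzyme Q synthesis genes Coq7 alone passed (8.33%, beside 7.45% of all genes). The median of the list was -0.01 against 0.00 over all genes tested.

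Cetn4, a centrin of centrioles and cilia, and Mfsd7b, a transporter also known as Flvcr1, were higher too. Mfsd7b measured 25.6, 27.1 and 31.02 CPM in control libraries and 32.9, 38.6 and 47.4 CPM in overactive libraries (0.54, SE 0.06, adjusted p = 6.02e-05). Cetn4 measured 4.12, 5.35 and 8.22 CPM against 7.25, 11.2 and 13.2 CPM (0.96, SE 0.11, adjusted p = 4.2e-05). The Cetn4 ranges met through overactive saline library 4, the lowest of its line, and control amphetamine library 4, the highest of its own. Mrc2, a collagen-binding endocytic receptor, was at 2.79, 5.19 and 6.24 CPM in control mice and at 8.22, 11.1 and 15.2 CPM in overactive mice. It was 2.37-fold higher on the fitted scale (SE 0.16 in log2, adjusted p = 0.000112), and the lines did not overlap. Itpr2, the inositol trisphosphate receptor found mainly in astrocytes, rose by a smaller step from 22.04, 23.9 and 25.4 CPM to 25.7, 30.8 and 34.8 CPM (0.35, SE 0.05, adjusted p = 0.000163). Park2, the ubiquitin ligase parkin, was measured at 8.92, 9.81 and 10.4 CPM and at 11.8, 13.8 and 17.5 CPM (0.52, SE 0.06, adjusted p = 8.29e-05), on the more abundant of its 2 rows. Each gene of this paragraph also passed with the marker scores and without the 4 libraries.

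Scg5, a chaperone of prohormone convertase in secretory granules, and Cd47, a surface ligand that restrains phagocytosis, were picked out after their values were seen. Scg5 was at 167, 254 and 342 CPM in control libraries and at 408, 439 and 484 CPM in overactive libraries, without overlap (0.79, SE 0.14, adjusted p = 0.00238). Cd47 went the other way, from 258, 318 and 340 CPM down to 209, 228 and 255 CPM (-0.42, SE 0.06, adjusted p = 0.000291).

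**Figure D1:**
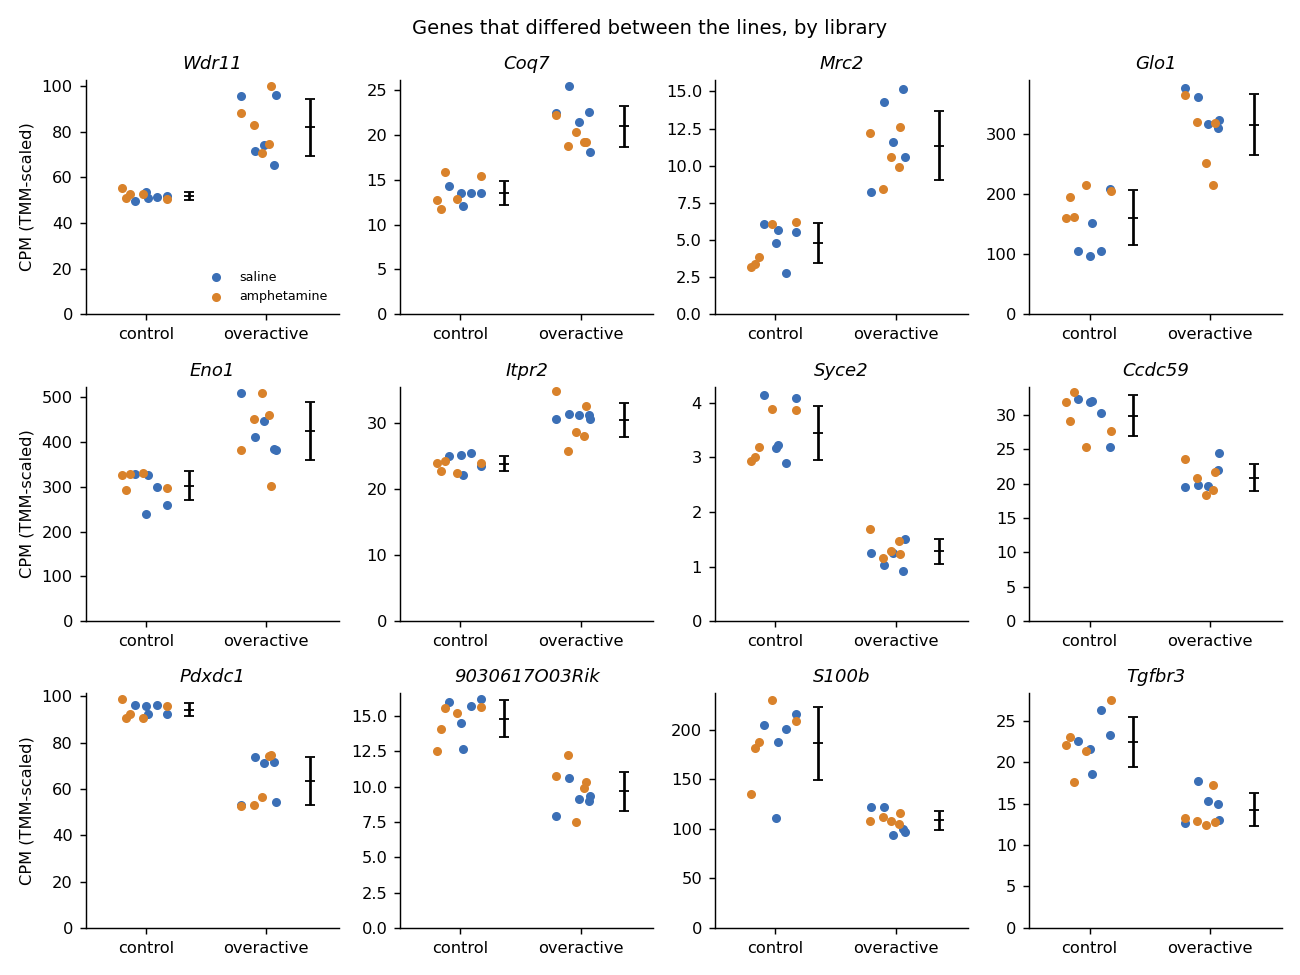
Levels of 12 genes in each library (CPM after TMM scaling, vertical axis from 0) by line, with saline mice in blue, amphetamine mice in orange, and the line mean with 1 SD beside the points. The points of Wdr11, Coq7, Mrc2, Glo1, Itpr2, Syce2, Ccdc59, Pdxdc1 and 9030617O03Rik do not overlap between lines, and those of Eno1, S100b and Tgfbr3 do.

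Syce2 (chr8:84872111-84900082), a component of the synaptonemal complex of meiotic chromosomes, showed the smallest p among the genes that were lower but present in both lines. Control libraries held 2.90, 3.21 and 4.14 CPM and overactive libraries 0.924, 1.24 and 1.69 CPM. The lowest control library was 1.72 times the highest overactive one, the widest relative gap among the separated genes with a value above 0 in both lines (-1.43, SE 0.11, adjusted p = 3.89e-07). Pdxdc1, a decarboxylase-like protein, fell from 90.7, 94.2 and 99.0 CPM to 52.5, 63.8 and 74.5 CPM (-0.57, SE 0.07, adjusted p = 0.000132). Ccdc59 (chr10:105763185-105848897) was at 25.3, 31.1 and 33.4 CPM in control mice and at 18.4, 20.3 and 24.4 CPM in overactive mice (-0.52, SE 0.06, adjusted p = 8.5e-05). For 9030617O03Rik the values were 12.5, 15.4 and 16.2 CPM against 7.49, 9.61 and 12.2 CPM (-0.62, SE 0.08, adjusted p = 0.000139). A second, weaker row of the same span was not called.

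Tgfbr3, the co-receptor betaglycan of the TGF-beta family, was at 17.7, 22.3 and 27.6 CPM in the control line and at 12.4, 13.1 and 17.8 CPM in the overactive line (-0.65, SE 0.09, adjusted p = 0.000175). S100b, a calcium-binding protein of astrocytes, was at 111, 194 and 230 CPM against 93.6, 108 and 122 CPM (-0.78, SE 0.10, adjusted p = 0.000179). The overactive libraries of S100b were tightly grouped, and a single control library lay inside their range. The genes of this and the preceding paragraph passed in all 3 fits.

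The upstream sequences of Wdr11 and Coq7, higher in the overactive line, and of Syce2 and Ccdc59, lower there, are printed because, Ndrg4 apart, they had the smallest p in their direction among protein-coding genes with 1 symbol and a mean of at least 1 CPM. They are reference sequence, not that of either line. Each is the stretch of 250 bases before the transcription start in RefSeq (GRCm38.p6), read 5′ to 3′ on the gene's strand. Capitals mark matches to 3 promoter motifs searched on both strands: the TATA box, written TATAAA or in reverse TTTATA, the GC box, written GGGCGG or in reverse CCGCCC, and the CCAAT box, written CCAAT or in reverse ATTGG.
Wdr11: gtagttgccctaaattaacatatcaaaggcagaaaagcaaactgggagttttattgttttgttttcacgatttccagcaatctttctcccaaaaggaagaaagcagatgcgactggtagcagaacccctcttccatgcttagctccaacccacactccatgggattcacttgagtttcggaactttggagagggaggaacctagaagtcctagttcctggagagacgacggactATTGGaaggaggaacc
Coq7: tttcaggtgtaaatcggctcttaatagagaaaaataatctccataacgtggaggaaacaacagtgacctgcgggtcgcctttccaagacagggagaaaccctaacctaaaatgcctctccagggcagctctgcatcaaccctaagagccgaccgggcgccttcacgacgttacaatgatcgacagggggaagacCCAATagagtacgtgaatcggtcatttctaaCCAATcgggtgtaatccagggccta
Syce2: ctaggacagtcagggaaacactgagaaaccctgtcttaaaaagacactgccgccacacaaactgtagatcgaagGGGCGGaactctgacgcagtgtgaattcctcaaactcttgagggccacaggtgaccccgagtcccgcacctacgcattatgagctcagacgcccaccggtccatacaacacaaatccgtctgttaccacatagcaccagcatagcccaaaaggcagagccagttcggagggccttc
Ccdc59: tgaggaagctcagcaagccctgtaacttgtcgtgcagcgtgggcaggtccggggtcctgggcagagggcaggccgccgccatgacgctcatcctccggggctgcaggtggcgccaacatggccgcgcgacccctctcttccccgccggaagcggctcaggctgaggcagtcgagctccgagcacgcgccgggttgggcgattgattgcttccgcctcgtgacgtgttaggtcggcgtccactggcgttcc
The windows are chr7:129591613-129591862 (plus strand) for Wdr11, chr7:118533357-118533606 (minus strand) for Coq7, chr8:84871861-84872110 (plus strand) for Syce2 and chr10:105841229-105841478 (plus strand) for Ccdc59. Wdr11 held 1 CCAAT box match, Coq7 held 2, Syce2 held 1 GC box match and Ccdc59 held none of the 3 motifs. Of 32851 promoter windows of the same length, 33.8% held a CCAAT box match, 32.7% a GC box match and 12.4% a TATA box match. GC content was 45.6% for Wdr11, 49.6% for Coq7, 54% for Syce2 and 68.4% for Ccdc59, beside a median of 52.4% over all windows.

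A few loci seemed to differ by steps rather than by shifts. The bounds between levels were set by hand for each gene, and no test for steps was made. Ndrg4 (chr8:95678010-95715119), a neuronal gene of the NDRG family, was at 2010, 2235 and 2412 CPM in the control line and was listed at 0 in all 10 overactive libraries. Cwc22 (chr2:77875186-77946372), a splicing factor whose copy number is known to vary between mouse strains, was also listed at 0 in all 10 overactive libraries. In both cases each of the other rows with the same span was at 0 as well, so that 4 of 4 rows at Ndrg4 and 7 of 7 at Cwc22 had no count in the overactive line. Mbp, Slc1a2 and Entpd4, which the brain is known to express, were listed at 0 in all 20 libraries of the table. The table's zeros are therefore given as listed, with no fold change. Apart from Ndrg4 and Cwc22, no span with a mean above 5.27 CPM in some group was at 0 throughout another group.

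Cwc22 also varied inside the control line. The 10 control libraries fell into 3 levels, 3 libraries between 28.96 and 30.97 CPM, 5 between 1169 and 1486 CPM, and 2 at 2746 and 2914 CPM. The low level was found in saline library 3 and in amphetamine libraries 1 and 4, and the high level in saline library 4 and amphetamine library 5, so both treatments held each. The pseudogene Ppp1r2-ps2 showed a similar split, with 5 control libraries between 7.77 and 9.38 CPM, the other 5 between 0.048 and 0.291 CPM, and all 10 overactive libraries between 0.0498 and 0.189 CPM. Its call was lost without the 4 libraries (adjusted p = 0.0554). Actbl2, an actin-like gene, was between 1.68 and 29.9 CPM in 6 control libraries and at most 0.067 CPM in the other 4, beside at most 0.0924 CPM in the overactive line. The call of Actbl2 was lost with the marker scores (adjusted p = 0.0576). Over all alternatives the call was lost in 2 of 32 for Actbl2 and in 1 of 31 for Cwc22.

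Gm6834 and Gm2808 were the most nearly complete of the stepped loci. Gm6834 lay between 2.60 and 6.57 CPM in all control libraries and between 0.0625 and 0.245 CPM in 9 overactive libraries, while overactive amphetamine library 3 held 3.22 CPM. Gm2808 was between 1.01 and 4.24 CPM in 9 control libraries, and control saline library 4, with 0.0223 CPM, sat at the level of the overactive line (0 to 0.149 CPM). Both are annotated as pseudogenes, and reads that fit a near-identical gene could be counted on either copy. Glo1 (chr17:30591197-30612722), glyoxalase 1, the enzyme that removes methylglyoxal, took 97.3 to 106 CPM in 3 control libraries, 152 to 162 CPM in 3 and 196 to 215 CPM in 4. In the overactive line 8 libraries were between 309 and 377 CPM and 2 at 216 and 251 CPM (0.99, SE 0.15, adjusted p = 0.000559).

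**Figure D2:**
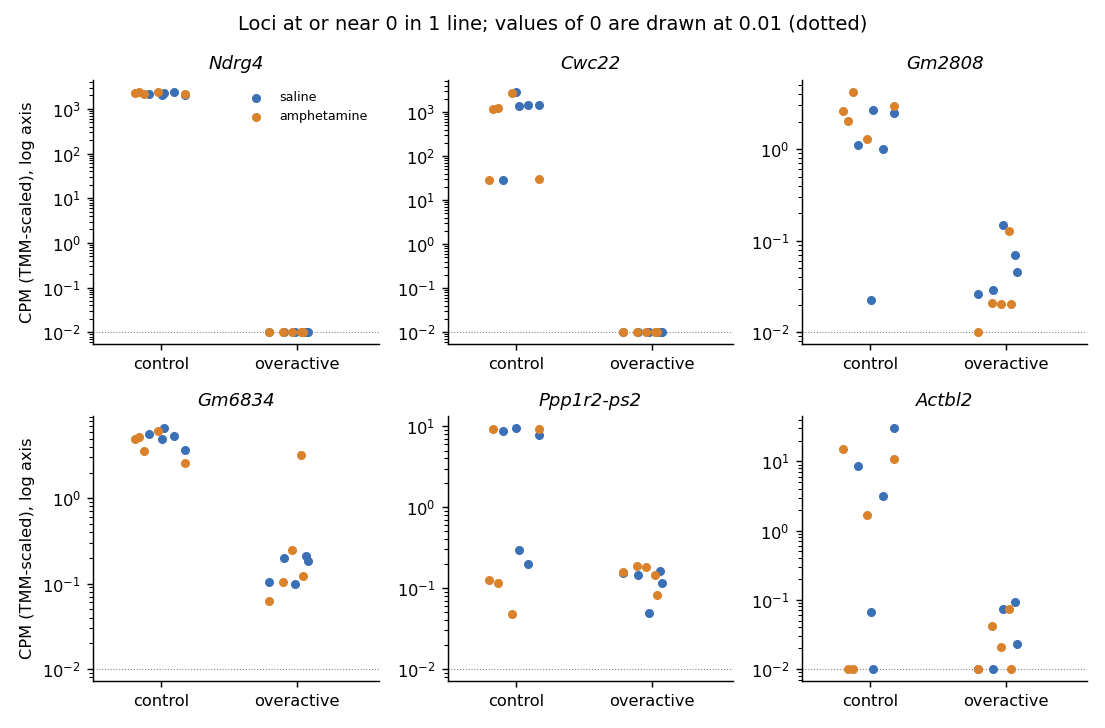
Levels of 6 loci in each library on a log axis (CPM after TMM scaling), with values of 0 drawn on the dotted line at 0.01. Control libraries of Cwc22, Ppp1r2-ps2 and Actbl2 fall into separate levels, and all overactive libraries of Ndrg4 and Cwc22 are listed at 0.

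Genes with known expression or copy variants between inbred mouse strains had 5 calls among 18 tested (27.8%, beside 7.45% of all genes). Besides Glo1 and Cwc22 these were Dnahc8, an axonemal dynein chain, and Btbd9, both of which lie next to Glo1 on chromosome 17, and Wdfy1. As neighbours, Glo1, Dnahc8 and Btbd9 need not be separate differences. The list was chosen with earlier results of these data known, so its share of calls is description only. The leading row of Dnahc8, whose other 2 rows were not called, was at 0.804, 1.59 and 3.18 CPM in control libraries and at 3.29, 4.05 and 6.60 CPM in overactive libraries (1.28, SE 0.19, adjusted p = 0.000662). Btbd9 was at 63.8, 83.2 and 103 CPM against 86.3, 99.2 and 106 CPM (0.27, SE 0.07, adjusted p = 0.0205). Wdfy1 fell from 65.6, 77.9 and 87.9 CPM to 26.4, 54.5 and 60.1 CPM without overlap (-0.68, SE 0.13, adjusted p = 0.00451). With the marker scores Wdfy1 missed the threshold (adjusted p = 0.0558), and without the 4 libraries Btbd9 did (adjusted p = 0.0889). Gabra2, a GABA-A receptor subunit from the same list, did not pass, with 87.7 to 250 CPM in the control line and 196 to 286 CPM in the overactive line (0.26, SE 0.15, adjusted p = 0.275).

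Of 25 genes of dopamine signalling 2 were called, both higher (8%, beside 7.45% of all genes tested), and the list's median was -0.10 against 0.00 over all genes. Aldh1a1, an aldehyde dehydrogenase of midbrain dopamine neurons and their terminals, was at 15.8, 20.7 and 36.5 CPM in control mice and at 23.8, 34.6 and 50.5 CPM in overactive mice (0.75, SE 0.16, adjusted p = 0.00848). Drd5, the D5 dopamine receptor, went from 1.85, 2.99 and 3.47 CPM to 3.10, 3.96 and 5.43 CPM (0.55, SE 0.13, adjusted p = 0.0145). Neither passed without the 4 libraries (adjusted p = 0.0967 and 0.215), and Drd5 also missed with the marker scores (adjusted p = 0.278). The ranges of both genes overlapped between lines.

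The main dopamine receptors of projection neurons did not pass. Drd1a was at 235, 254 and 303 CPM in control mice and at 179, 215 and 291 CPM in overactive mice (-0.18, SE 0.09, adjusted p = 0.245). Drd2 was at 168, 194 and 233 CPM against 140, 171 and 228 CPM (-0.12, SE 0.09, adjusted p = 0.379). Without the 4 libraries the differences of Drd1a and Drd2 were -0.0049 and 0.00090. The dopamine transporter Slc6a3 and tyrosine hydroxylase Th, whose transcripts are made mainly in midbrain cell bodies, had differences of 0.62 (SE 0.31) and -0.29 (SE 0.18), which became 0.28 and -0.57 with the marker scores and 0.28 and -0.43 without the 4 libraries. The vesicular transporter Slc18a2 differed by 0.15 (SE 0.08), by 0.03 with the scores and by 0.07 without the 4 libraries.

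Among 30 markers of striatal projection neurons 3 were called, all lower (10%, beside 3.62% of all genes called lower and 7.45% called in either direction), and the list's median was -0.13. These were Meis2, a transcription factor, Arpp21, a phosphoprotein regulated by cyclic AMP, and Rasgrp2, an exchange factor for Rap. Arpp21 was at 1197, 1377 and 1556 CPM in control libraries and at 904, 1138 and 1437 CPM in overactive libraries (-0.30, SE 0.08, adjusted p = 0.0331). None of the 3 passed without the 4 libraries (adjusted p from 0.261 to 0.29), and Meis2 alone passed with the marker scores (adjusted p = 0.0126). In bulk tissue fewer cells of a type and less RNA per cell cannot be told apart. Penk and Adora2a, of the D2 cell type, differed by -0.08 (SE 0.10) and -0.13 (SE 0.08). Tac1 and Pdyn, neuropeptide genes of the D1 cell type, differed by 0.07 (SE 0.08) and -0.06 (SE 0.11). Ppp1r1b, the dopamine-regulated phosphoprotein DARPP-32, differed by -0.15 (SE 0.09), and none of these 5 passed. Without the 4 libraries the values were 0.05 for Penk, -0.02 for Adora2a, 0.21 for Tac1, 0.07 for Pdyn and -0.04 for Ppp1r1b, so that Penk and Pdyn changed sign.

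No called gene was found among 34 immediate early genes, the fast transcriptional response to neuronal activity, in the comparison of the lines. Fos was at 5.74, 10.7 and 27.9 CPM in the control line and at 7.55, 11.97 and 32.5 CPM in the overactive line, with both treatments in each range (0.15, SE 0.30, adjusted p = 0.792). Arc and Egr1 differed by 0.21 (SE 0.32) and -0.18 (SE 0.18). For Fos and Arc the SE is close to the median size of a called change, so a difference of that size was not detectable. Glutamate and GABA receptor genes also had 0 calls among 36, with differences from -0.23 to 0.38.

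Potassium channels were called in both directions, 2 higher and 3 lower of 36 (13.9%, beside 7.45% of all genes tested). Kcnj10, the inward rectifier of astrocytes and oligodendrocytes, rose from 176, 223 and 280 CPM to 259, 300.0 and 373 CPM (0.45, SE 0.08, adjusted p = 0.00338). Kcnk2, the two-pore channel TREK-1, fell from 102, 120.1 and 135 CPM to 83.2, 95.2 and 114 CPM (-0.34, SE 0.06, adjusted p = 0.00224). Both passed in all 3 fits. Kcnn2, Kcnh3 and Kcnt1, by 0.23 (SE 0.05), -0.31 (SE 0.09) and -0.32 (SE 0.09), passed in neither alternative.

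Vesicle fusion genes had 3 calls among 37, all lower (8.11%, beside 7.45% of all genes). Napb, the neuronal beta-SNAP that takes part in SNARE disassembly, was at 411, 461 and 525 CPM in the control line and at 275, 374 and 439 CPM in the overactive line (-0.33, SE 0.06, adjusted p = 0.00186), and it passed in all 3 fits. The synaptotagmins Syt7 and Syt4 differed by -0.20 (SE 0.05) each and passed in neither alternative.

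Of 73 nuclear genes of oxidative phosphorylation 1 was called (1.37%, beside 7.45% of all genes), and the median of the list was 0.01. It was Ndufc1 of complex I (0.15, SE 0.04, adjusted p = 0.0394), which missed with the marker scores (adjusted p = 0.122), without the 4 libraries (adjusted p = 0.155) and in 13 of 20 fits that left out a single library. In glycolysis and methylglyoxal removal 3 of 21 were called (14.3%, beside 7.45% of all genes): Glo1 and Eno1 higher and Pfkl lower. Eno1, the glycolytic enzyme enolase 1, was at 239, 313 and 330 CPM in control libraries and at 302, 429 and 511 CPM in overactive libraries (0.49, SE 0.08, adjusted p = 0.00212). Pfkl, the liver-type phosphofructokinase, differed by -0.20 (SE 0.05, adjusted p = 0.0139) and passed in neither alternative.

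Detoxifying enzymes had 3 genes higher and 1 lower of 28 (14.3%, beside 7.45% of all genes tested). Gstp2, a glutathione transferase, was at 0.0795, 0.141 and 0.261 CPM in control mice and at 0.143, 1.12 and 2.43 CPM in overactive mice (3.11, SE 0.35, adjusted p = 4.2e-05). Acy3, an aminoacylase, was at 1.10, 1.26 and 1.89 CPM against 1.41, 3.42 and 5.22 CPM (1.33, SE 0.19, adjusted p = 0.000334). Both genes lie near the start of chromosome 19 and passed in all 3 fits. Gstp2 has a close copy, and its reads may be shared with it. Mgst1 (0.50, SE 0.13) and Cbr3 (-0.43, SE 0.10) passed in neither alternative.

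Of 77 cytoplasmic ribosomal protein genes 70 had differences above 0, with a median of 0.06 against 0.00 over all genes tested. The 4 calls were Rpl5, Rpl13a, Rpl35a and Rps13, all higher (5.19%, beside 3.82% of all genes called higher and 7.45% called in either direction). None of the 4 passed with the marker scores (adjusted p from 0.102 to 0.344), and without the 4 libraries Rps13 alone did (adjusted p = 0.0496). The clock genes Cry2, a repressor of the molecular clock, and Bhlhe40 were lower, by -0.21 (SE 0.05) and -0.27 (SE 0.07). They were 2 of 17 tested (11.8%, beside 7.45% of all genes), and neither passed in the alternatives. Antigen presentation genes had 3 calls among 18, all lower (16.7%, beside 7.45% of all genes). These were H2-K1 (-0.59, SE 0.17), B2m (-0.26, SE 0.07) and the lower of 2 Ciita rows (-0.72, SE 0.21). H2-K1 belongs to a family of similar, polymorphic genes, which makes its count uncertain. With the marker scores none of the 3 passed (adjusted p from 0.115 to 0.314), and without the 4 libraries B2m alone did (adjusted p = 0.0277).

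Glial markers had calls in both directions. Of 17 oligodendrocyte and myelin markers 3 were higher (Mobp, Gjb1 and Bcas1, 17.6%). Of 11 precursor markers 2 were higher (Olig1 and C1ql1, 18.2%), beside 3.82% of all genes called higher and 7.45% called in either direction. Mobp, a myelin protein, was at 644, 812 and 951 CPM in control libraries and at 785, 989 and 1365 CPM in overactive libraries (0.32, SE 0.08, adjusted p = 0.018). Olig1, a transcription factor of the oligodendrocyte lineage, went from 73.0, 80.3 and 100.4 CPM to 86.2, 96.4 and 124 CPM (0.33, SE 0.07, adjusted p = 0.00846). None of these 5 passed in either alternative. Thalamic markers had a median of 0.78, with 22 of 22 above 0, and cortical markers one of -0.48, with 3 of 21 above 0, but 0 genes of either list passed.

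Among 17 astrocyte markers Aldh1l1, Gja1 and Fgfr3 were higher, by 0.32 (SE 0.07), 0.20 (SE 0.05) and 0.26 (SE 0.06), and S100b alone was lower. These calls made up 23.5% of the list, beside 7.45% of all genes. The 3 gains passed in neither alternative, whereas S100b passed in both. Microglia and complement markers split as well, with 1 higher and 3 lower of 19 (21.1%, beside 7.45% of all genes). C1qc, a chain of complement C1q, was at 25.4, 32.8 and 40.7 CPM in control libraries and at 19.4, 24.2 and 28.4 CPM in overactive libraries (-0.41, SE 0.08, adjusted p = 0.00431). Trem2 and the protease gene Ctss were lower by -0.48 (SE 0.11) and -0.40 (SE 0.08). Itgam, the integrin CD11b, was higher, from 10.9, 13.4 and 17.6 CPM to 14.7, 19.6 and 21.5 CPM (0.44, SE 0.09, adjusted p = 0.00693), and it alone of the 4 passed in all 3 fits. The median of the 19 microglial markers was -0.03.

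Rgs5, a pericyte marker, rose from 6.89, 9.67 and 14.3 CPM to 13.7, 16.2 and 20.9 CPM (0.73, SE 0.12, adjusted p = 0.00186) and passed in all 3 fits. Of the 22 endothelial and mural markers Abcc9, a channel-associated pericyte gene, was also higher and Tagln, a smooth muscle gene, was lower. Neither passed in the alternatives. With Rgs5 these calls made up 13.6% of the list, beside 7.45% of all genes. Of 17 interneuron markers 1 was called (5.88%, beside 7.45% of all genes). It was Chat of cholinergic interneurons, lower by -1.14, which passed in neither alternative (adjusted p = 0.0928 and 0.182). Meningeal markers had 0 calls among 18. Of 7 blood markers the haemoglobin gene Hba-a2, which has a near-identical copy, was called as higher (14.3%, beside 7.45% of all genes). Hba-a2 passed in neither alternative. Ependymal markers had 6 of 16 genes higher and none lower (37.5%, beside 7.45% of all genes). Their median was 0.69, and it was 0.36 with the marker scores. Foxj1, the regulator of motile cilia, was at 5.59, 8.51 and 13.5 CPM in the control line and at 6.41, 17.4 and 22.3 CPM in the overactive line (0.76, SE 0.20, adjusted p = 0.0302). None of the 6 ependymal genes passed in either alternative. Choroid plexus markers were all on the higher side, 14 of 14 with a median of 0.73, and 0 were called. With the marker scores as covariates the choroid plexus median turned to -0.66. The summed ependymal markers ran from 48.4 through 72.9 to 93.5 CPM in the control line and from 52.7 through 109 to 146 CPM in the overactive line, and the part of ventricle-lining tissue in these calls was not tested.

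**Figure D3:**
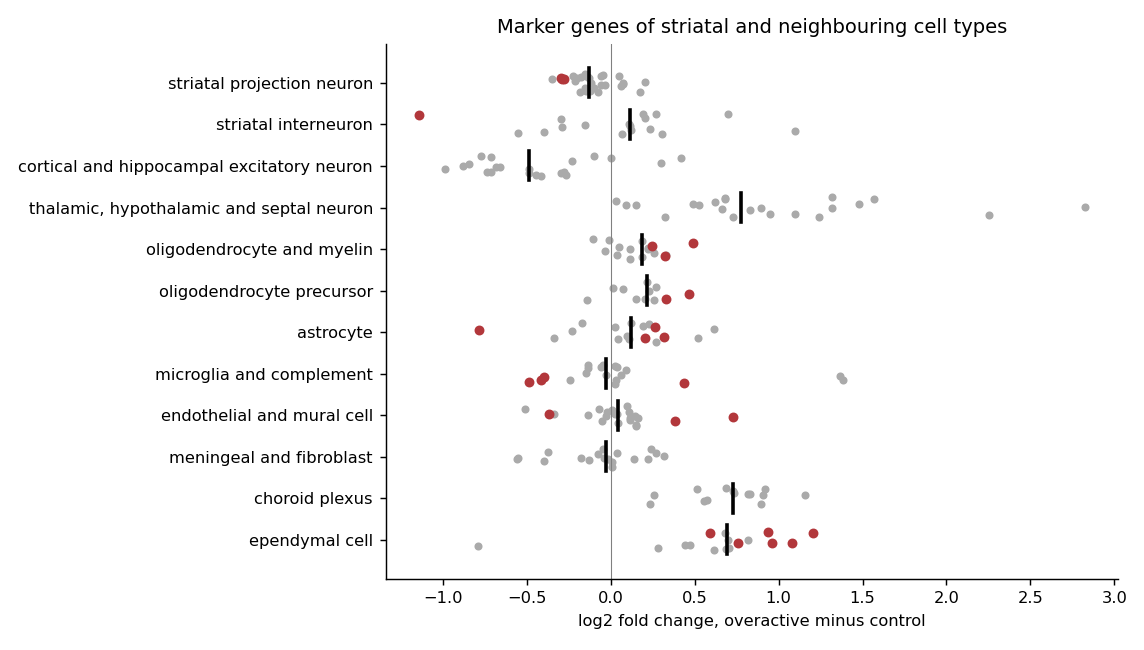
Log2 fold change, overactive minus control, of each tested marker gene in 12 cell type lists, with called genes in red and the list median as a black bar. Thalamic, choroid plexus and ependymal markers lie mostly above 0 and cortical markers mostly below, while the called genes of the striatal projection neuron list lie just below 0.

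Called genes were spread over the chromosomes and were denser in some places. The highest shares were on chromosome 19 (11.3% of 585 genes), chromosome 1 (11.2% of 1044), chromosome 6 (10.7% of 862) and chromosome 18 (10.1% of 436), beside 7.45% overall. Chromosome X had the lowest share, 13 of 606 (2.15%), and 12 of these 13 were higher in the overactive line. Among them was Apln, the apelin peptide gene (0.53, SE 0.13, adjusted p = 0.0195). It was chosen after its values were seen.

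**Figure D4:**
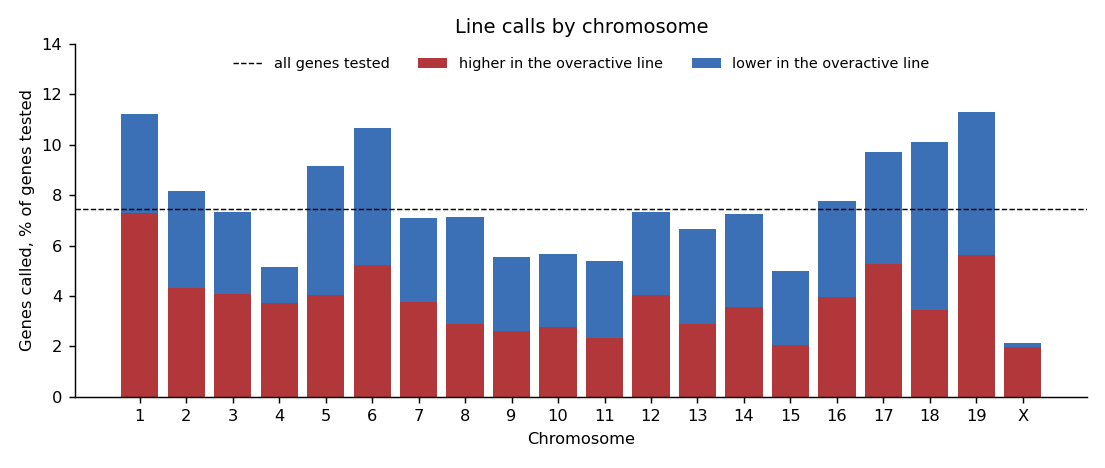
Percent of tested genes called on each chromosome, split into genes higher (red) and lower (blue) in the overactive line, with the share over all genes as a dashed line. Chromosomes 19, 1, 6 and 18 stand above 10% and chromosome X at 2.15%.

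In windows of 5 Mb with at least 5 tested genes, 122 of 497 held no call and 71 held at least 2 times the overall share. The 6 windows with most calls held 95 of the 1281 calls (7.42%) and 2.94% of the genes tested. Because these windows were picked by their number of calls, a larger share of calls than of genes follows from the choice. Called genes had another called gene as a direct neighbour in 22.9% of cases, beside 13.2% for genes that were not called. Neighbouring genes can share reads at their ends, and no test was made of this difference. Here and in the window counts each row is taken as a gene, so Tekt4 and Dnahc14 count more than once. Rows of the same span can also be each other's neighbour.

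The window from 25 to 30 Mb of chromosome 17 had the most calls, 23 of 128 genes, 11 higher and 12 lower. It held Ift140, a gene of transport along cilia (-0.31, SE 0.06), Rnf8, a ubiquitin ligase of the DNA damage response (-0.17, SE 0.04), and Cdkn1a, the cell cycle inhibitor p21 (0.81, SE 0.18). Of its 23 calls 3 remained with the marker scores, Ift140, Rnf8 and Gnptg, and Cdkn1a missed (adjusted p = 0.144). From 5 to 10 Mb of the same chromosome 14 of 36 genes were called (38.9%), 10 higher and 4 lower, and 7 remained. Snx9, a sorting nexin of endocytosis, was at 11.2, 14.3 and 16.1 CPM in control mice and at 17.01, 17.9 and 19.9 CPM in overactive mice (0.38, SE 0.06, adjusted p = 0.00123). Ezr, the membrane-to-actin linker ezrin, was at 58.0, 66.1 and 83.4 CPM against 74.0, 87.2 and 100.5 CPM (0.36, SE 0.06, adjusted p = 0.0014). In the same window E430024P14Rik and Gm2808 were lower, by -2.62 (SE 0.33) and -5.17 (SE 0.59). E430024P14Rik is annotated as antisense, and without stated strand its reads cannot be told apart from those of the gene opposite. Control saline library 4 was the lowest of the control line for both, with 0.38 and 0.0223 CPM.

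On chromosome 1 from 180 to 185 Mb 16 of 46 genes were called (34.8%), 12 higher, and 3 of the 16 remained with the marker scores. Nvl, a nuclear ATPase of ribosome assembly, took 29.2 to 44.8 CPM in 9 control libraries and 74.4 CPM in control amphetamine library 1, beside 60.3 to 103 CPM in all overactive libraries (0.98, SE 0.14, adjusted p = 0.000535). Taf1a, a subunit of the RNA polymerase I factor SL1, went from 16.7, 18.1 and 24.8 CPM to 21.0, 25.1 and 27.6 CPM (0.39, SE 0.06, adjusted p = 0.00154). Parp1, the DNA damage sensor, was lower (-0.20, SE 0.04, adjusted p = 0.00813) and did not pass with the marker scores (adjusted p = 0.169). The first 5 Mb of chromosome 19 held 13 calls among 58 genes, 9 higher, and 5 of the 13 remained with the marker scores. Besides Acy3 and Gstp2 these included Unc93b1, which carries nucleic acid-sensing Toll-like receptors to endosomes (0.89, SE 0.13, adjusted p = 0.000559), and Carns1, carnosine synthase (0.67, SE 0.12, adjusted p = 0.00253), which missed with the scores (adjusted p = 0.0755). Unc93b1 ran from 7.17 through 10.2 to 14.4 CPM in control mice, and from 10.3 through 18.1 to 26.7 CPM in overactive mice. Carns1 shares its span with the antisense gene Gm17552, and reads of the pair cannot be told apart without strand.

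The next 5 Mb of chromosome 19 held 15 calls among 147 genes (10.2%), 10 of them lower, and 1 remained with the marker scores, Ppp2r5b, a regulatory subunit of protein phosphatase PP2A (0.25, SE 0.04, adjusted p = 0.00104). On chromosome 5 from 30 to 35 Mb 14 of 90 genes were called (15.6%), 6 higher and 8 lower, and 4 remained with the marker scores. Slc5a6, the sodium-dependent vitamin transporter, went from 33.7, 36.9 and 39.6 CPM to 24.2, 31.7 and 35.3 CPM (-0.30, SE 0.05, adjusted p = 0.00307). Preb, a factor of vesicle budding from the endoplasmic reticulum, was at 59.0, 63.6 and 67.2 CPM against 46.5, 54.2 and 62.9 CPM (-0.24, SE 0.04, adjusted p = 0.00224). Both passed in all 3 fits.

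Saline and amphetamine mice, which share no library, gave separate measurements of the line difference. In saline mice alone 227 genes were called (1.32%), 153 higher and 74 lower. In amphetamine mice alone 30 were called (0.174%), 13 higher and 17 lower. Of the 227 genes 217 (95.6%) had the same sign in amphetamine mice, and all 30 genes called in amphetamine mice had the same sign in saline mice. Over all genes tested the share with the same sign was 70.7%. An unadjusted p under 0.05 with the same sign was found in amphetamine mice for 107 of the 227 genes (47.1%), beside 11.8% of all genes, and in saline mice for 26 of the 30 (86.7%), beside 14.4% of all genes.

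The genes called in both were 11, which is 4.85% of the saline list and 36.7% of the amphetamine list, and all had the same sign in both. They were Ndrg4, Syce2, Gm12541, Wdr11, Lrrc17, Gm2808, Tmem44, Mfsd7b, 5031414D18Rik, S100b and a row shared by Olfr1417 and Stx3. S100b differed by -0.79 (SE 0.16, adjusted p = 0.0429) in saline mice and by -0.78 (SE 0.11, adjusted p = 0.0208) in amphetamine mice. Wdr11 differed by 0.64 (SE 0.10) and 0.66 (SE 0.08), and Syce2 by -1.56 (SE 0.17) and -1.32 (SE 0.15). For each of these 3 genes the values from the 2 sets of mice lay closer together than the sum of their SEs. That did not hold for every gene of the 11. Lrrc17 differed by 3.36 (SE 0.59) in saline and 4.93 (SE 0.53) in amphetamine mice, but its level was near the floor. Its medians were 0.0447 CPM in control saline, 0.0290 in control amphetamine, 0.517 in overactive saline and 0.755 in overactive amphetamine mice. Gm12541 differed by -1.39 (SE 0.22) and -1.85 (SE 0.20), and the row of Olfr1417 and Stx3 by 0.34 (SE 0.06) and 0.51 (SE 0.06). 5031414D18Rik appears on 3 rows with the same span, so its counts may be divided among them.

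Genes called in saline mice had a median size of 1.01 there and of 0.40 in the same direction in amphetamine mice. In the other direction, genes called in amphetamine mice had a median size of 0.86 there and of 0.59 in saline mice. The former value of each pair comes from the mice in which the genes were chosen. The difference between the treatments was tested itself, as an interaction: 0 of 17206 genes passed in edgeR (0%) or in DESeq2, with 510 and 570 genes at an unadjusted p under 0.05. The fits within a treatment were not repeated with the marker scores. The cortical score, the mean log2 deviation of the cortical markers from all libraries, averaged 0.07 ± 0.40 (SD, n = 5) in control saline, -0.64 ± 0.31 in overactive saline, 0.41 ± 0.18 in control amphetamine and 0.16 ± 0.54 in overactive amphetamine mice. The thalamic score averaged -0.16 ± 0.75 in control saline, 0.43 ± 0.94 in overactive saline, -0.50 ± 0.20 in control amphetamine and 0.24 ± 0.85 in overactive amphetamine mice. The gap between lines was thus larger in saline mice for the cortical score and larger in amphetamine mice for the thalamic score, and the part of either in the 2 lists was not tested.

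**Figure D5:**
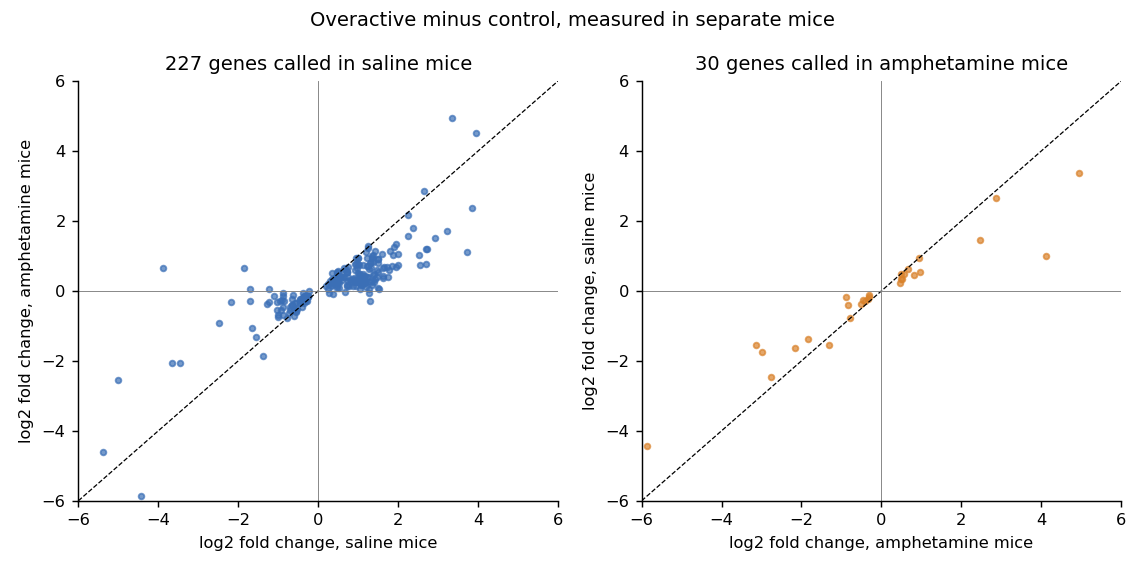
Line difference (log2, overactive minus control) measured in saline and in amphetamine mice, for the 227 genes called in saline mice (left) and the 30 called in amphetamine mice (right), with the line of equality dashed and axes ending at 6. Most points lie in the quadrants of equal sign, and those of the left panel lie mainly between the horizontal axis and the line of equality, while 3 genes on the left and 1 on the right fall outside the axes.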

How the data were processed

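The authors deposited 1 table of expected counts per locus, not scaled between libraries, with a symbol and span per row. The submitters' processing notes name the builds mm10 and GRCm38, and the aligner and counting tool are not given in the sources used here. Rows without a symbol (0.591% to 0.714% of a library's counts) were left out, and expected counts were rounded to whole numbers. In R 4.3.3, edgeR 4.0.16 (filterByExpr on the 4 groups, TMM scaling) fitted a quasi-likelihood model with treatment and line to all 20 libraries; fits within saline and amphetamine used 10 libraries each. Tests are two-sided, and p was adjusted over 17206 genes by Benjamini and Hochberg's method, with calls under 0.05. Levels are CPM from TMM-scaled library sizes. Spans are as in the table, counted from 1, and biotypes come from GENCODE M21.

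Named genes were, among called genes with 1 symbol and a mean of at least 1 CPM, the 12 with the smallest p and the 6 with the largest change in each direction, up to 3 called members of each of 26 gene lists, up to 5 in each of 6 windows, genes listed at 0 in a line, and preset genes. The text gives a selection of these 117. Separated genes, further called list members, genes of chromosome X and genes called in both treatments were named after their values were seen. The members, lists and rules were chosen with earlier results of these data known. Marker scores are the mean log2(CPM + 0.5) deviation of the cortical and thalamic lists. Loci at 0 left out and the 4 libraries left out were alternatives added after the data were seen. The model was also run on simulated counts, with the outcome not given here. These were drawn independently for each gene and library, so differences in tissue between libraries were not covered. No 2 libraries were identical. Other tools were DESeq2 1.42.0, limma 3.58.1, Python 3.11.15, pandas 2.3.3, numpy 2.4.6 and matplotlib 3.10.9. A few single-gene results are not reported here.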

Additional observations from a re-analysis of the deposited data

Results flagged for a closer look

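Among the named genes, each line's 10 libraries were searched for a single library far from the others (Dixon's ratio above its 95% critical value for 10 samples, on log2 of CPM + 0.5). This picked out 17 of 234 gene and line pairs (7.26%), where chance alone gives about 1 in 20. All values are CPM, with the range of the other 9 libraries of the line after them.

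In the control line, saline library 4 was lowest for Gm2808 (0.0223, others 1.01 to 4.24) and for E430024P14Rik (0.38, others 2.90 to 6.78), which lie in the same 5 Mb window of chromosome 17. Control amphetamine library 4 was lowest for Gm12541 (3.95, others 6.41 to 8.81) and for Gabra2 (87.7, others 144 to 250.4). Control amphetamine library 1 was highest for Nvl (74.4, others 29.2 to 44.8). Control saline library 3 was highest for Aldh1a1 (36.5, others 15.8 to 24.5). Control saline library 2 was highest for Rnf8 (35.6, others 29.5 to 32.5) and Ept1 (122, others 110.4 to 117).

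In the overactive line, amphetamine library 1 was lowest for Unc93b1 (10.3, others 16.5 to 26.7) and Gm17552 (2.35, others 4.30 to 6.997), which are close on chromosome 19, and highest for E430024P14Rik (1.09, others 0.469 to 0.749). Amphetamine library 3 was highest for Gm6834 (3.22, others 0.0625 to 0.245) and Ift140 (32.4, others 23.1 to 26.6). Amphetamine library 4 was highest for Bhlhe40 (92.1, others 55.6 to 72.6) and Pfkl (143, others 98.0 to 119). Amphetamine library 2 was highest for B2m (60.6, others 38.0 to 46.9). Saline library 4 was lowest for Cetn4 (7.25, others 9.70 to 13.2).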

How the results depend on the processing

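The line difference of 1281 genes was 1284 with RLE scaling, 1219 with upper quartile scaling (61.0% higher in place of 51.4%), 1114 without a filter, 1218 with 1 CPM in 5 libraries, 1458 with limma-voom, 1208 with 1 mean per group, 1247 without shared rows and 1280 without the loci listed at 0. DESeq2 called 2108 (1095 higher and 1013 lower), including all 1281. The marker scores gave 251 (128 higher and 123 lower), and leaving out the 4 libraries gave 324 (155 higher and 169 lower); the cause was not tested. Leaving out 1 library gave 803 to 1519 calls (437 to 818 higher and 360 to 701 lower). The lowest counts came without overactive saline library 4 (803), control saline library 5 (808) and overactive amphetamine library 2 (824), and 396 genes were lower without control saline library 1. All 1281 genes kept their direction in every fit that tested them all.

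Within saline 227 calls became 239 with RLE, 936 with DESeq2 and 48 to 250 without 1 library. The 48 came without control saline library 2, and leaving out control saline library 1, 4 or 5 or any overactive saline library but 2 also brought the count under 151. Within amphetamine 30 became 30, 491 and 21 to 38. The interaction stayed at 0 with RLE, DESeq2 and the block. With the replicate number as a block the counts were 1293 over both treatments, 109 within saline and 6 within amphetamine. The numbers pair no samples by label, and deviations of same-numbered libraries correlated at -0.23 to 0.25 (median 0.04 over 30 pairs, 10 above 0.1). The 7.42% of calls in the 6 fullest windows was 5.54% with 2 Mb windows and 12.4% at an adjusted p under 0.01, with 3 of the 6 windows shared.

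Of 101 named genes that were called, 45 passed under every alternative in which they were tested (at most 32), and 0 changed sign. With the marker scores 50 missed, without the 4 libraries 47, and in at least 1 fit without a library 19. Another alternative lost 14: limma-voom 9, no filter 4, the replicate block 4, 1 mean per group 3 and upper quartile scaling 2, with some genes lost in several. Among genes not called, Egr1 turned to 0.0093 with the scores, and without the 4 libraries Egr1 turned to 0.078, Drd2 to 0.00090, Penk to 0.051 and Pdyn to 0.070. Over fits without 1 library Fos ran from -0.10 to 0.31, Arc from -0.028 to 0.34 (both lowest without overactive saline library 3) and Nnt from -0.048 to 0.0059 (highest without control saline library 3).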
